A study of Mus musculus with 4 samples.

Results

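The miR-29 family comprised mmu-miR-29a-3p, mmu-miR-29b-3p and mmu-miR-29c-3p, and its data were all peaks listed under these 3 miRNAs in chimeric Ago2 eCLIP of overloaded mouse plantaris muscle. In chimeric eCLIP a miRNA is ligated to the RNA it sits on within the Argonaute protein Ago2, so 1 read names both partners. The family held 2803 of 93468 peaks in the MOV control library and 3051 of 100897 peaks in the MOV mimic library, a peak being 1 genomic interval listed for 1 miRNA. These were 3 of the 560 miRNAs listed in each library. Each peak was given to the gene whose GRCm38 span it overlapped on its own strand.

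The muscles came from 5-month-old male C57BL/6J mice after 10 days of mechanical overload (MOV) by synergist ablation, an operation that removes part of the calf muscles so that the plantaris takes their load and grows. At surgery the left plantaris received lentivirus with a control sequence and the right plantaris lentivirus with a miR-1a-3p mimic, both under a CMV promoter with TurboGFP as reporter. Both groups were therefore overloaded and infected, and the CMV promoter is active in many cell types besides muscle fibres. There was 1 library in each group, no replicate, and no test between the groups; whether both muscles came from 1 animal was not given in the sources used here, and size-matched input libraries were not analysed here.

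The miR-29 family is best known as a brake on extracellular matrix production: its members bind the mRNAs of many collagens and of elastin, and a fall in miR-29 accompanies fibrosis in heart, lung, kidney and muscle. In muscle the family is also known for targets outside the matrix, among them DNA methylation enzymes, the survival factor Mcl1 and growth pathway genes. A miRNA finds its target mainly through its seed, the bases near its 5′ end, and the complement of the seed in a 3′ UTR is the usual site.

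The mature sequences, from RefSeq (GRCm38.p6), are shown because the members share a seed and differ little elsewhere; bases 2 to 8, the seed, are in capitals.
mmu-miR-29a-3p: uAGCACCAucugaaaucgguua
mmu-miR-29b-3p: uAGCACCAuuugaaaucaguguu
mmu-miR-29c-3p: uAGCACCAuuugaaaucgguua
No other mature mouse miRNA of that table had this seed. Counted from 1 at the 5′ end, miR-29a-3p became miR-29c-3p by 1 substitution, C10U, and miR-29c-3p became miR-29b-3p by G18A, U21G, A22U and 1 added base. The mature miR-29a-3p lies on chromosome 6 (31062673 to 31062694, minus strand), with a copy of miR-29b-3p nearby (31063025 to 31063047). The mature miR-29c-3p lies on chromosome 1 (195037600 to 195037621, plus strand), with the second copy of miR-29b-3p (195037091 to 195037113). The files do not separate the copies of miR-29b-3p.

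The family match in a target is TGGTGCT, the complement of bases 2 to 8, and TGGTGCTA where an A also faces base 1. The following 30-base windows come from 3′ UTRs of the GENCODE transcripts of the older mm9 annotation, searched on the sense strand only, and show matches in collagens, in Sparc and in non-matrix genes known as targets that carried many family reads. Capitals mark the match.
Col3a1: ccaacttcaaaatgtctcaaTGGTGCTAta
Col1a1: gtggggtgggaaggaatttcTGGTGCTAta
Col6a3: ctgcacgtgacctgtcaataTGGTGCTAaa
Col4a1: cctctgccaccgtcacaacaTGGTGCTAct
Tet2: gtttgggtgttaacattaaaTGGTGCTAca
Mcl1: gcaggctagagtcttaaccaTGGTGCTAtt
Sparc: ggctgttccgcctggggataaGGTGCTAac
Sparc: gatttaactgaatacattaacGGTGCTAaa
Col3a1, Col1a1, Col6a3 and Col4a1 encode collagen chains, Tet2 an enzyme that oxidises methylated DNA, and Mcl1 a protein that blocks apoptosis. Sparc, a collagen-binding glycoprotein, had no TGGTGCT in its 3′ UTR and instead held 2 copies of GGTGCTA, which pairs with bases 2 to 7 and has an A opposite base 1. The match shown starts at base 235 of a 3′ UTR of 959 nt in Col3a1 and at 919 of 1423 nt in Col1a1. It starts at 174 of 731 nt in Col6a3 and at 33 of 1378 nt in Col4a1. These are not the only matches of the genes shown. Col1a1 also held GGTGCTA from bases 877 and 1097, Col3a1 from base 672 and Col4a1 from base 337. Tet2 also held further matches. In Sparc the copies start at bases 110 and 143 of 1085 nt. Peak positions were not placed on these transcripts, because the peaks and the transcripts are in different genome builds.

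Values given in pairs below are those of the MOV control and then of the MOV mimic library. The 3 members together took 5595 of 232408 chimeric reads in the control library, or 2.41% (exact Clopper-Pearson 95% interval 2.35 to 2.47). In the mimic library they took 6388 of 259207 reads, or 2.46% (2.41 to 2.52). All intervals here cover counting error only, and the spread between animals was not measured. The largest member was miR-29a-3p, with 2994 and 3597 reads, rank 20 and rank 16 of all miRNAs. miR-29b-3p had 1551 and 1531 reads, and miR-29c-3p had 1050 and 1260 reads. All 3 were thus among the 40 most frequent miRNAs on Ago2 targets in both libraries.

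**Figure D1:**
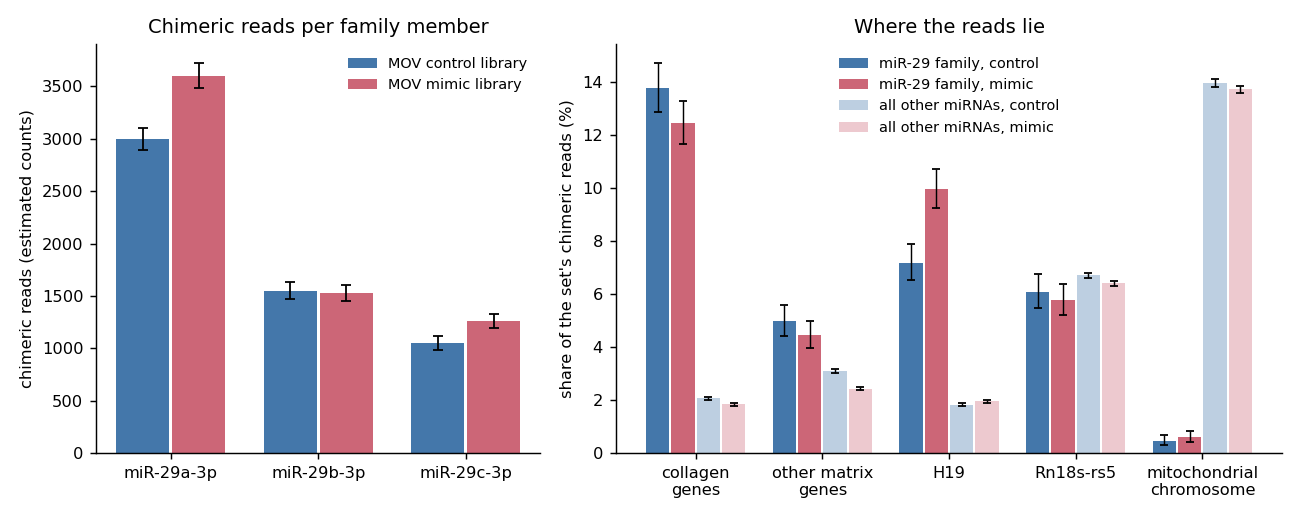
Left, chimeric reads (estimated counts) of each family member in the MOV control and MOV mimic library, with exact Poisson 95% intervals. Right, the share of chimeric reads (percent, with exact Clopper-Pearson 95% intervals) that lay in collagen genes, other matrix genes, H19, Rn18s-rs5 and the mitochondrial chromosome, for the family and for all other miRNAs; the family stood at 13.8% and 12.5% in collagen genes, the other miRNAs at 2.08% and 1.86%.

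Between the libraries the family moved little. Its reads were 1.14 times as many in the mimic library (exact conditional binomial 95% interval 1.10 to 1.18), while all chimeric reads were 1.12 times as many. miR-29a-3p had a ratio of 1.20 (1.14 to 1.26), miR-29c-3p of 1.20 (1.10 to 1.30) and miR-29b-3p of 0.987 (0.919 to 1.06). The interval of miR-29b-3p did not overlap those of miR-29a-3p or miR-29c-3p. Ratios here are of reads as deposited, and divided by library totals the family stood at 1.02 (0.987 to 1.06), miR-29a-3p at 1.08 (1.03 to 1.13) and miR-29b-3p at 0.885 (0.824 to 0.9504). Of the 3 members, 0 passed 1.5-fold in either direction, against 3.38% of the 148 miRNAs of at least 50 peaks per library that were past 1.5-fold higher and 2.70% that were past 1.5-fold lower. miR-1a-3p, the miRNA of the mimic, had 27411 and 35876 reads, a ratio of 1.31 (1.29 to 1.33).

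Most of the family's reads lay where all 3 members were listed, although 61.0% and 63.0% of family intervals listed only 1 member. In the control library 281 of 1814 family intervals listed all 3 members, and these held 66.5% of the family's reads. In the mimic library 297 of 2010 intervals did so and held 68.8%. Among intervals with at least 10 family reads, 85 of 90 and 91 of 95 listed all 3. Most peaks were small: the median was 0.938 and 0.907 reads, and 82 and 92 peaks with at least 10 reads held 37.9% and 41.5% of the family's reads. Reads are estimated counts and most are not whole (23.1% and 22.0% of member peaks were within 0.01 of a whole number), and how the reads of such near-identical miRNAs were divided is not given in the sources used here. The split between members at 1 site is therefore uncertain, so values of genes and peaks below use their sum, and values of single members rest on the deposited split.

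Among collagen genes, other matrix genes, H19, Rn18s-rs5 and the mitochondrial chromosome, collagens had the highest share of family reads over that of other miRNAs. The list of known non-matrix targets, given below, was not in this comparison. The family held 14.5% and 14.7% of the chimeric reads on that list. In the control library 771 of the family's reads lay in collagen genes, or 13.8% (12.9 to 14.7), against 2.08% (2.03 to 2.14) of the reads of all other miRNAs. In the mimic library these were 796 reads, or 12.5% (11.7 to 13.3), against 1.86% (1.81 to 1.91). The family's share was 6.61 and 6.71 times that of the other miRNAs. Without the mitochondrial chromosome and the ribosomal RNA locus Rn18s-rs5 it was 5.61 and 5.72 times. On the mitochondrial chromosome the other miRNAs had 14.0% and 13.7% of their reads, and the family 0.474% and 0.613%. On Rn18s-rs5 the shares were closer, 6.72% and 6.42% for the other miRNAs and 6.09% and 5.77% for the family. Counted by peaks, 135 of 2803 family peaks (4.82%) and 143 of 3051 (4.69%) lay in a collagen gene, against 2.28% and 1.95% of all peaks. Of all chimeric reads in collagen genes, the family held 14.0% (13.1 to 15.0) and 14.5% (13.6 to 15.5).

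Each member, by the deposited split, showed this. miR-29a-3p had 15.4% (14.1 to 16.7) and 14.0% (12.9 to 15.2) of its reads in collagen genes. miR-29b-3p had 12.7% (11.1 to 14.5) and 11.3% (9.82 to 13.1). miR-29c-3p had 10.9% (9.04 to 12.9) and 9.39% (7.81 to 11.1). The order a, b, c was the same in both libraries, and the intervals of miR-29a-3p and miR-29c-3p did not overlap in either, while that of miR-29b-3p overlapped both others in each library. Over the 148 miRNAs the median collagen share was 2.24% and 1.71%. miR-29a-3p ranked 2 and 5, miR-29b-3p 6 and 6, and miR-29c-3p 11 and 9.

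The miRNAs that ranked beside the members had few reads. In the control library miR-32-5p had 18.3% of its reads in collagen genes, with an interval of 8.19 to 36.0, from 36.4 reads in all. miR-25-3p had 15.1% (10.1 to 21.1), miR-33-5p 14.8% (9.03 to 21.9) and miR-92a-3p 14.5% (9.88 to 20.1), the last from 201 reads, the most of these 4. In the mimic library miR-25-3p led with 19.2% (14.1 to 25.6), followed by miR-32-5p, miR-541-5p (15.5%, 7.17 to 29.1) and miR-33-5p (15.0%, 8.93 to 22.8). Each of these intervals overlapped that of miR-29a-3p. miR-25-3p, miR-32-5p and miR-92a-3p belong to 1 seed family, another than miR-29. Among the 38 miRNAs whose reads reached 1000 in both libraries, the members ranked 1, 2 and 3 in both libraries, against a median of 2.31% and 2.23%.

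**Figure D2:**
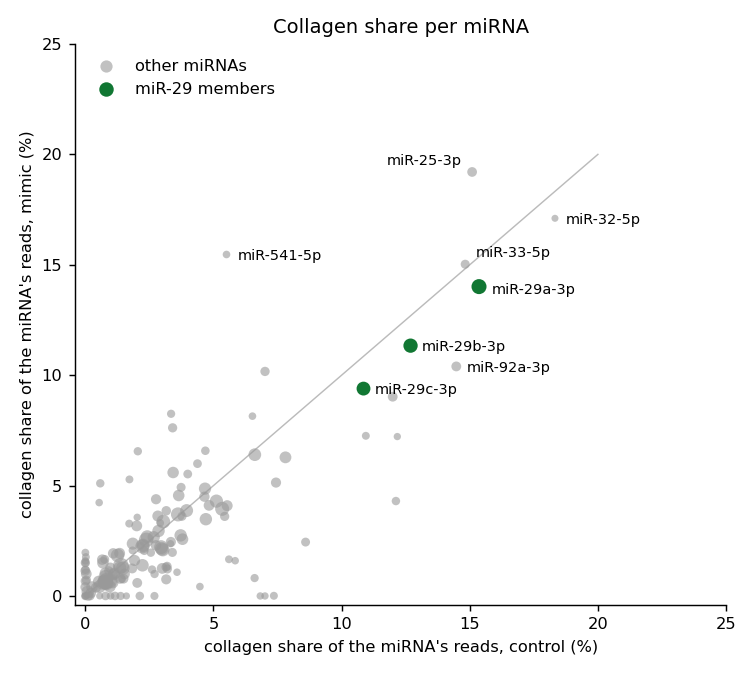
Share of each miRNA's chimeric reads that lay in collagen genes (percent) in the MOV control (horizontal) and MOV mimic library (vertical), for the 148 miRNAs with at least 50 peaks in each; larger points have more reads and the line marks equal shares. The 3 members, in green, lie between 9.39% and 15.4% on both axes, and the miRNAs at or above them are small points.

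Groups of other miRNAs gave a scale. miR-199 and miR-214, which are abundant in connective tissue cells, had 4.75% (4.28 to 5.26) and 4.58% (4.12 to 5.08) of reads in collagen genes. The miR-26 family, of miR-26a-5p and miR-26b-5p, had 5.22% (4.75 to 5.72) and 3.86% (3.48 to 4.27). The intervals of the miR-29 family overlapped none of these. In other matrix genes the order was different: miR-199 and miR-214 had 9.64% (8.98 to 10.3) and 7.68% (7.09 to 8.30), above the 4.99% (4.43 to 5.59) and 4.46% (3.97 to 4.997) of the miR-29 family.

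Of the 44 collagen genes listed, 23 and 22 had reads of any miRNA, and 13 and 16 had family reads. The 12 collagens with at least 3 family reads in both libraries are given by name below. Reads of a gene are not divided by its length and reflect both its RNA and its sites, so genes are compared by the family's share of all chimeric reads on the gene. In bulk muscle, fewer cells of a type and less RNA per cell cannot be told apart. Over the 451 genes with at least 50 chimeric reads in both libraries, the median family share was 0.567% and 0.492%.

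Col3a1, the chain of type III collagen and of loose connective tissue, carried the most. It had 395 and 397 family reads, a ratio of 1.005 (0.872 to 1.16). This was 51.2% and 49.8% of all family reads in collagens. The family made up 30.8% (28.4 to 33.5) and 34.5% (31.8 to 37.4) of all chimeric reads on Col3a1. A single peak on chromosome 1, from 45348896 to 45349025 on the plus strand in the control library, held 337 of these reads. In the mimic library the peak from 45348896 to 45349024 held 327, a ratio of 0.970 (0.831 to 1.13). It lay 681 to 810 nt before the 3′ end of the gene span. At this peak the family made up 70.4% and 77.0% of all chimeric reads, with miR-1a-3p next at 33.3 and 29.2 reads. This was the largest family peak of the data. A second Col3a1 peak, picked after its values were seen, ran from 45311644 to 45311773 in the control library. It held 46.5 and 56.4 family reads, 35.6% and 45.1% of its chimeric reads. There it lay 37933 to 38062 nt before the 3′ end, near the start of the gene span at 45311538.

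The other fibrillar collagens had smaller family shares. Col1a1, the α1 chain of type I collagen, had 128 and 142 family reads, or 7.04% (5.90 to 8.30) and 7.46% (6.32 to 8.74) of the gene's reads. Col1a2, its α2 chain, had 41.2 and 41.9 reads, or 4.45% (3.20 to 5.97) and 4.39% (3.19 to 5.91). These intervals lay far below those of Col3a1, although Col1a1 had more chimeric reads of all miRNAs (1821 and 1902) than Col3a1 (1279 and 1148). The main family peak of Col1a1 on chromosome 11 (94952691 to 94952815, plus strand, in the control library) held 79.6 and 76.6 family reads, 45.6% and 60.7% of its chimeric reads; it was picked after its values were seen. Col5a1, of type V collagen, had 20.8 and 14.5 family reads, Col5a2 had 17.0 and 13.5, and Col11a1, of type XI collagen, had 3.49 and 6.01. The intervals of these 3 ratios all included 1.

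Among basement membrane collagens, Col4a1 and Col4a2 encode the ubiquitous chains of type IV collagen and are transcribed in opposite directions from adjoining starts on chromosome 8. Col4a1 had 22.4 and 40.8 family reads, a ratio of 1.82 (1.08 to 3.29). Col4a2 had 19.8 and 20.8 reads, a ratio of 1.05 (0.542 to 2.04). The family's share of reads was 29.5% (19.1 to 40.5) and 37.6% (28.5 to 47.4) on Col4a1, and 16.5% (10.5 to 24.6) and 16.9% (10.9 to 24.9) on Col4a2. Col4a1 was the 1 collagen of 12 whose ratio interval left out 1, and divided by library totals its ratio was 1.63 (0.972 to 2.95), which includes 1. Reads of all miRNAs on Col4a1 also went from 75.8 to 109, a ratio of 1.43. Of 5 markers of endothelial cells, which make this membrane, 3 and 4 had reads. Their sum was 21.3 and 49.4 reads, a ratio of 2.31 (1.37 to 4.10). Single markers had few reads and differed in direction: Cdh5 had 11.0 and 25.5, Tek 0.891 and 10.3, and Pecam1 0 and 9.66. Kdr was lower in the mimic library, with 9.43 and 3.93, and Vwf was at 0 in both. The part of these markers in the result was not tested.

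Of the remaining collagens, Col6a3, a chain of the type VI collagen that surrounds muscle fibres, had 78.1 and 76.7 family reads. That was 25.8% (20.9 to 31.1) and 24.2% (19.7 to 29.4) of the gene's chimeric reads. Its partner Col6a2 had 18.0 and 11.4 family reads, or 23.0% and 15.8%. Col6a1, the third chain of the same protein, had 0 and 2.75 family reads, of 82.7 and 93.7 chimeric reads. Among these chains family reads thus lay on Col6a2 and Col6a3 and barely on Col6a1. The annotated 3′ UTR of Col6a1 has no TGGTGCT and 1 GGTGCTA. That of Col1a2, which had 41.2 and 41.9 family reads, has the same, and the part of the match in these values was not tested. Col8a1 had 16.3 and 8.86 family reads and Col15a1, a collagen of the basement membrane zone, had 7.50 and 15.7, each with an interval of the ratio that included 1. Over the 12 named collagens, 7 were higher and 5 lower in the mimic library by reads as deposited, but 3 were higher and 9 lower when divided by library totals, so these counts set no direction. The whole list had a ratio of 1.03 (0.934 to 1.14), against 0.999 for the reads of all miRNAs in collagens.

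**Figure D3:**
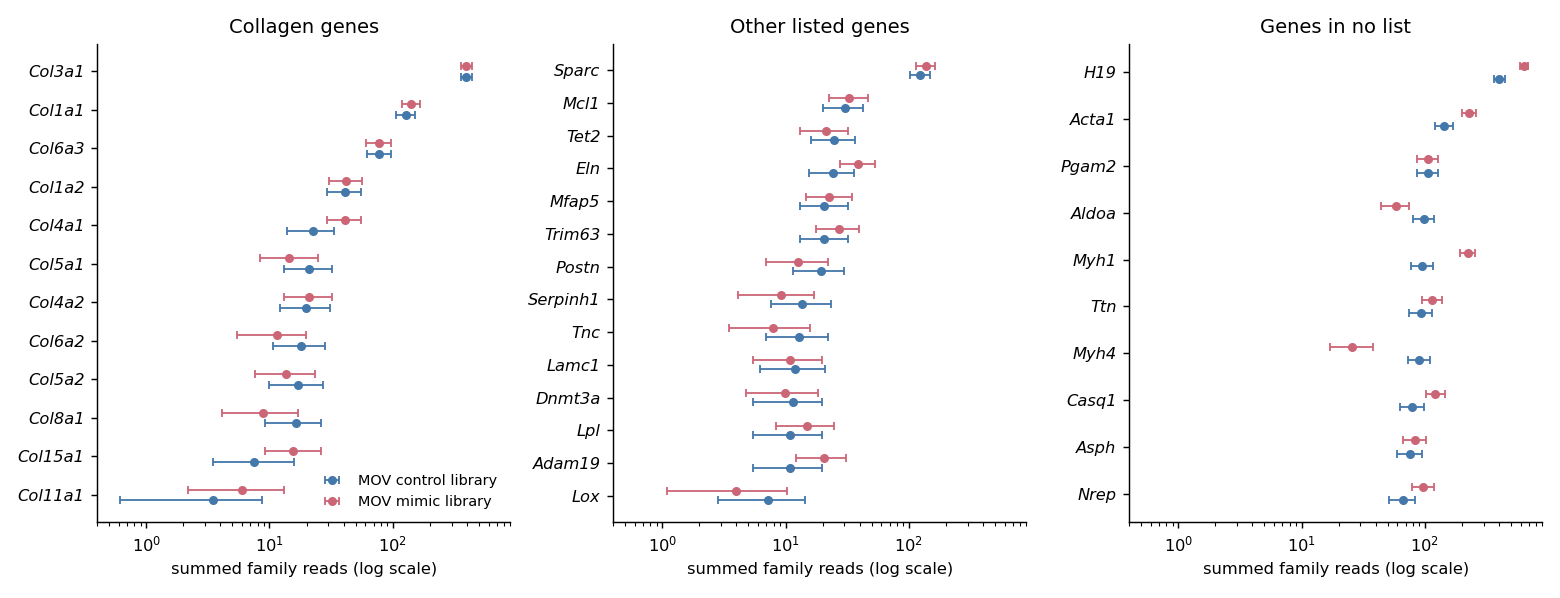
Summed family reads of each named gene in the MOV control (blue) and MOV mimic (red) library on a logarithmic axis, with exact Poisson 95% intervals, for collagen genes, other genes of the lists and genes in no list. The intervals of the 12 collagens overlap between libraries (Col3a1 at 395 and 397), while H19 at 403 and 637 and Myh4 at 90.1 and 25.6 stand apart.

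Fibroblast markers, as a check on the cells that make most collagen, were all detected: 6 of 6 had reads in both libraries, with a sum of 823 and 684 reads, a ratio of 0.831 (0.750 to 0.921). Postn, also in the matrix lists, held 616 and 485 of these reads, and the other 5 markers summed to 206 and 199, a ratio of 0.966 (0.791 to 1.18), with 2 of them higher and 3 lower. The 8 markers of muscle fibres were all detected too, with 39805 and 51537 reads, a ratio of 1.29 (1.28 to 1.31). The label of muscle tissue was met, and no marker of adipocytes had a read. Whether these differences in markers bear on the collagen values was not tested.

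Outside the collagens the family's matrix reads were concentrated in a few genes. Of 128 other matrix genes, 92 and 94 had chimeric reads of any miRNA and 27 in each library had family reads, with 279 and 285 reads in all. The family's share of reads on these genes was 1.61 and 1.83 times that of other miRNAs, below the ratio for collagens. Per miRNA the members were not near the top: miR-29a-3p ranked 29 and 30, miR-29b-3p 31 and 28, and miR-29c-3p 48 and 42 of 148. The median gene of these lists with at least 10 chimeric reads (64 in each library) had a family share of 0%, as had the median of all genes with at least 10 reads, whereas the median collagen gene had 11.8% (18 genes) and 13.5% (16 genes).

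Sparc was the leading gene of this group. It had 124 and 137 family reads, a ratio of 1.10 (0.860 to 1.42), which was 44.5% and 48.0% of the family's reads in other matrix genes. The family made up 27.0% (23.0 to 31.3) and 27.4% (23.5 to 31.5) of all chimeric reads on Sparc. Most lay in 1 peak on chromosome 11 (55395401 to 55395518, minus strand, in the control library), with 107 and 109 family reads, 75.9% and 70.7% of the reads of that peak. No other miRNA reached more than 4 reads there in the control or 5.16 in the mimic library.

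Elastic fibre genes followed. Eln, elastin itself, had 24.5 and 38.8 family reads, a ratio of 1.59 (0.953 to 2.82). The family made up 46.2% (31.6 to 59.6) and 53.8% (42.0 to 66.0) of its chimeric reads, and Eln ranked 2 of the 451 genes by that share. Mfap5, a glycoprotein of elastin microfibrils, had 20.6 and 22.5 family reads, or 30.01% and 56.7% of the gene's reads. Postn, or periostin, which is induced in remodelling tissue, had 19.4 and 12.6 reads, or 3.14% and 2.61%, and the anti-adhesive glycoprotein Tnc had 13.0 and 7.92, or 13.0% and 7.67%. Fn1, fibronectin, is given for contrast and was picked after its values were seen: it had 1631 and 1391 chimeric reads of all miRNAs, of which the family had 1 and 0, the latter with an exact Poisson upper limit of 3.69 reads.

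The other matrix lists held little. Of 13 proteoglycan genes, 11 and 12 had chimeric reads, 848 and 792 in all, of which the family had 1.05 and 2.04. Of 17 laminins, nidogens and related basement membrane genes, 1 had at least 3 family reads in each library, namely Lamc1, the laminin γ1 chain, with 11.9 and 10.9 reads. Among 25 genes for matrix synthesis and cross-linking, Serpinh1, the collagen chaperone HSP47, had 13.7 and 9.16 family reads, or 34.1% and 30.4% of the gene's reads, and the cross-linking enzyme Lox had 7.23 and 3.94. The summed family reads of that list were 29.4 and 14.5, a ratio of 0.495 (0.258 to 0.997). Among 32 proteases and inhibitors, Adam19 had 10.9 and 20.4 family reads, a ratio of 1.87 (0.830 to 4.20).

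The list of 34 non-matrix genes known as miR-29 targets had 149 and 167 family reads, 2.66% and 2.62% of the family's reads. The family held 14.5% and 14.7% of the chimeric reads on these genes, as it did on the collagens. Tet2 had 24.9 and 21.4 family reads, 42.6% (30.2 to 56.8) and 44.2% (29.5 to 58.8) of its reads. Mcl1 had 30.3 and 32.9, or 15.1% and 14.3%. Trim63, the muscle ubiquitin ligase MuRF1, had 20.6 and 27.3, or 25.8% and 29.2%. Lpl, lipoprotein lipase, had 11.0 and 14.8 family reads, and the DNA methyltransferase Dnmt3a had 11.5 and 9.84. Every one of these 5 genes had a ratio interval that included 1.

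Genes outside the lists held most of the family's reads, and several had ratio intervals that left out 1. H19, an imprinted long non-coding RNA of growing muscle, had 403 and 637 family reads, a ratio of 1.58 (1.39 to 1.80), while chimeric reads of every kind on H19 had a ratio of 1.23. Its share of the family's reads went from 7.20% (6.54 to 7.91) to 9.98% (9.25 to 10.7). For miR-199 and miR-214 the H19 share was higher and went from 10.8% (10.1 to 11.6) to 13.4% (12.6 to 14.2). For the let-7 family it went from 0.829% to 1.15%, and for the miR-26 family it was 0.294% and 0.284%. Of the 8 largest family peaks, 3 lay in H19 on chromosome 7, minus strand, given by their control positions. The first, from 142576262 to 142576309, held 139 and 232.2 family reads, a ratio of 1.67 (1.35 to 2.07). The second, from 142576310 to 142576322, held 88.1 and 186, a ratio of 2.12 (1.63 to 2.76), and the third, from 142576411 to 142576447, held 61.3 and 114, a ratio of 1.85 (1.36 to 2.59). The first and second intervals touch each other.

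Abundant muscle genes made up the rest of the top genes. Acta1, skeletal muscle actin, had 143 and 227 family reads, a ratio of 1.59 (1.28 to 1.97), and its largest peak on chromosome 8 (123893179 to 123893228, minus strand) had 74.0 and 172. Myh1, the heavy chain of IIx fibres, had 94.7 and 223, a ratio of 2.35 (1.84 to 3.02). Myh4, the heavy chain of IIb fibres, had 90.1 and 25.6, a ratio of 0.284 (0.179 to 0.451). Over all miRNAs together, reads went from 6380 to 11359 on Myh1 and from 5140 to 4015 on Myh4, ratios of 1.78 and 0.781. Myh1 and Myh4 are near-identical neighbours and reads may be split between them, so the direction of each alone is uncertain. Markers of muscle fibres, a list that holds both genes and Acta1, had a ratio of 1.29 over all miRNAs, and their part in these values was not tested. The family made up 1.48% and 1.96% of all chimeric reads on Myh1, and 1.75% and 0.636% on Myh4. On Acta1 it made up 6.02% and 8.43%, near its 7.04% and 7.46% on Col1a1. The medians over the 451 genes were 0.567% and 0.492%.

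The last of the 8 largest peaks lay in the ribosomal RNA locus Rn18s-rs5 on chromosome 17 (39846891 to 39846936, plus strand, in the control library), a repeated locus. It held 82.8 and 85.5 family reads, 2.16% and 1.97% of the reads of all miRNAs there.

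The glycolytic genes Pgam2 and Aldoa differed from each other. Pgam2, phosphoglycerate mutase, had 106 family reads in both libraries, all in 1 peak on chromosome 11 (5803419 to 5803546, minus strand, in the control library) that was mainly occupied by miR-133a-3p (273 and 408 reads). Aldoa, aldolase A, had 97.8 and 57.8, a ratio of 0.591 (0.420 to 0.827). Casq1, the calcium store protein calsequestrin, had 79.1 and 122, a ratio of 1.54 (1.15 to 2.08), and Ttn, titin, had 93.2 and 115, a ratio of 1.24 (0.933 to 1.64). The family was a large part of reads on Casq1 (20.2% and 23.1%) and a small part on Ttn (0.532% and 0.489%).

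Asph and Nrep stood out by share. Asph, whose locus also encodes the calcium channel partner junctin, had 75.6 and 82.7 family reads, or 45.6% (38.0 to 53.7) and 49.1% (41.6 to 57.2) of the gene's reads. Nrep, a small protein named for neuronal regeneration, had 66.1 and 96.6, a ratio of 1.46 (1.06 to 2.04), or 1.31 (0.954 to 1.83) divided by library totals. The family made up 63.8% (53.4 to 72.7) and 73.1% (65.1 to 80.8) of the reads on Nrep, the highest share among the 451 genes. The strand of Nrep is not known from the tables used here, so reads of an overlapping antisense gene could not be told apart.

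Of the 63 genes with at least 10 family reads in each library, 12 (19.05%) were past 1.5-fold higher in the mimic library, against 17.0% of the 1733 pairs of a gene and another miRNA with as many reads. A further 9 (14.3%) were past 1.5-fold lower, against 8.42%. Without the near-identical Myh1, Myh2 and Myh4, whose directions are uncertain, these were 10 (16.7%) and 8 (13.3%) of 60 genes. The shares over the 1733 pairs were not recomputed without these myosin genes. Col4a1, Eln, H19, Acta1, Casq1 and Adam19 were among the 10, and Aldoa, Col6a2 and Postn among the 8. With 1 library per group these counts describe 2 muscles.

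Peak by peak, the 2 libraries shared the larger family sites. Of 1814 family intervals in the control library, 768 (42.3%, 40.1 to 44.6) were overlapped by a family interval of the mimic library on the same strand. This rose with reads: 26.5% of intervals under 1 read were overlapped, 42.3% from 1 to under 3 reads, 78.8% from 3 to under 10, and 97.8% (88 of 90) at 10 or more. Seen from the mimic library, 91 of 95 intervals at 10 or more reads were overlapped. At the 726 intervals that were each other's best overlap, the median log2 ratio of mimic over control reads was 0.10 (0.00 to 0.21), with an SD of 1.93 over intervals. All chimeric reads differed by 0.16 on that scale, and for the shared single-miRNA peaks of all others it was 0.04 (0.03 to 0.06). At the 46 shared intervals in collagen genes the median was 0.21 (-0.13 to 0.57).

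Of the 222 shared peaks of single members with at least 3 reads in both libraries, 31 (14.0%) were at least 2-fold higher in the mimic library, against 10.2% of such peaks over all miRNAs. At least 2-fold lower were 7 (3.15%), against 5.58%. The neighbouring listings of 1 interval under several members are not independent, since the members share their sites.

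Pooled over all genes, the family's reads exceeded those of other miRNAs by share within 1000 nt of the 3′ end, but not close to it. Much of this excess arose between 700 and 800 nt. There the family's cumulative share went from 15.2% to 29.7% in the control and from 16.4% to 31.6% in the mimic library. Other miRNAs went from 14.5% to 16.4% and from 14.2% to 15.9%. The main Col3a1 peak (337 and 327 family reads) and the first 2 H19 peaks lay there. For all genes, shares without Col3a1 and H19 were not computed. Within 300 nt the family had 5.52% and 4.88% against 7.23% and 7.24%, and within 500 nt it had 11.5% (10.7 to 12.4) and 12.4% (11.5 to 13.3) against 11.0% (10.8 to 11.1) and 10.9% (10.7 to 11.0). Within 1000 nt of the 3′ end of the gene span lay 34.6% (33.3 to 36.0) and 37.2% (36.0 to 38.5) of the family's reads, against 20.2% and 19.4% for other miRNAs, leaving out the mitochondrial chromosome and Rn18s-rs5. In collagen genes these shares were 75.5% (72.3 to 78.5) and 74.2% (70.9 to 77.1) for the family, and 33.5% and 31.2% for other miRNAs on the same genes. Without Col3a1 they were 63.0% (57.9 to 67.9) and 63.5% (58.7 to 68.4) against 28.9% and 28.3%. In other matrix genes the shares within 1000 nt had overlapping intervals, 25.7% (20.8 to 31.4) and 28.7% (23.6 to 34.4) against 24.5% (23.5 to 25.5) and 23.9% (22.8 to 24.9), while within 2000 nt, which takes in the main Sparc peak, the family had 77.9% and 82.3% against 37.3% and 37.6%.

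**Figure D4:**
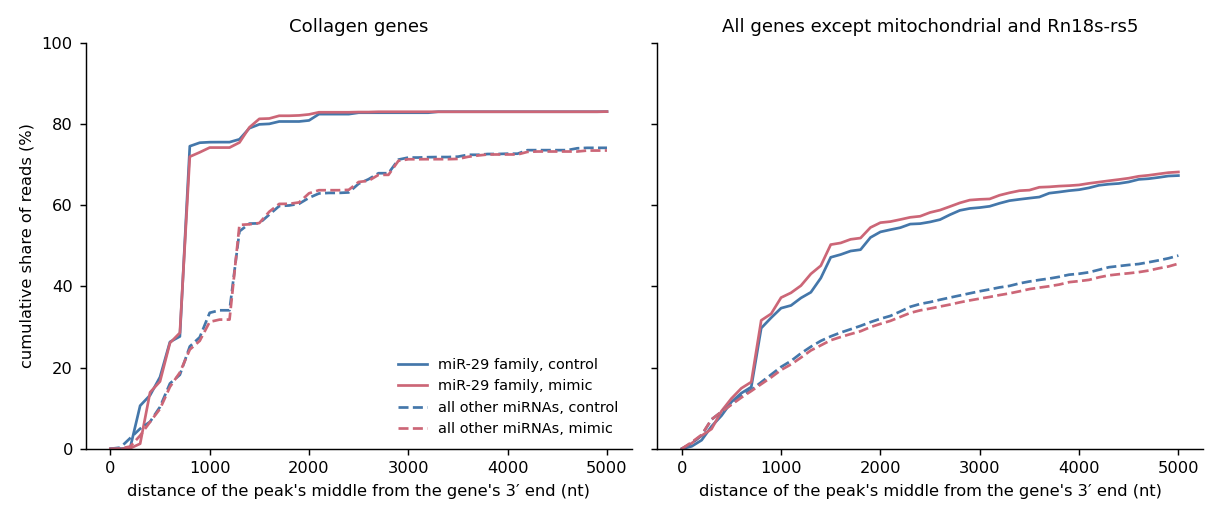
Cumulative share of chimeric reads (percent) by the distance of the peak's middle from the 3′ end of the gene span (nt), in collagen genes (left) and in all genes except the mitochondrial ones and Rn18s-rs5 (right), for the family (solid) and all other miRNAs (dashed) in both libraries. The family curve in collagens steps up before 1000 nt, where it reaches 75.5% and 74.2%. Much of this step is the main Col3a1 peak.

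The seed match was more frequent in genes with more family reads, both in the 3′ UTR and in coding sequence. TGGTGCT occurs in the 3′ UTR of 10.6% of the 19915 genes with an annotated 3′ UTR in the mm9 transcripts. Among genes with a peak of some miRNA but 0 family reads it was in 13.9% (12.9 to 14.9) and 13.4% (12.5 to 14.3). It was in 37.4% (30.9 to 44.3) and 44.9% (37.9 to 52.0) of genes with 3 to under 10 family reads, and in 43.7% (31.9 to 56.0) and 48.1% (36.9 to 59.5) of those with 10 or more. Per 1000 nt of 3′ UTR, genes with 0 family reads had 0.100 and 0.102 matches and genes with 10 or more had 0.522 and 0.471, a rate that does not depend on the length of the UTR. Without the collagens, 36.1% (24.2 to 49.4) and 42.3% (30.6 to 54.6) of genes with 10 or more family reads held it. These shares rest on 6173 of 6655 and 6453 of 6947 genes with a peak, those that matched a transcript with a 3′ UTR by name. In coding sequence the match was in 19.8% and 19.7% of genes with 0 family reads. Among genes with 10 or more it was in 43.7% and 39.5%. Per 1000 nt of coding sequence these groups had 0.123 and 0.125 matches, and 0.321 and 0.317.

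**Figure D5:**
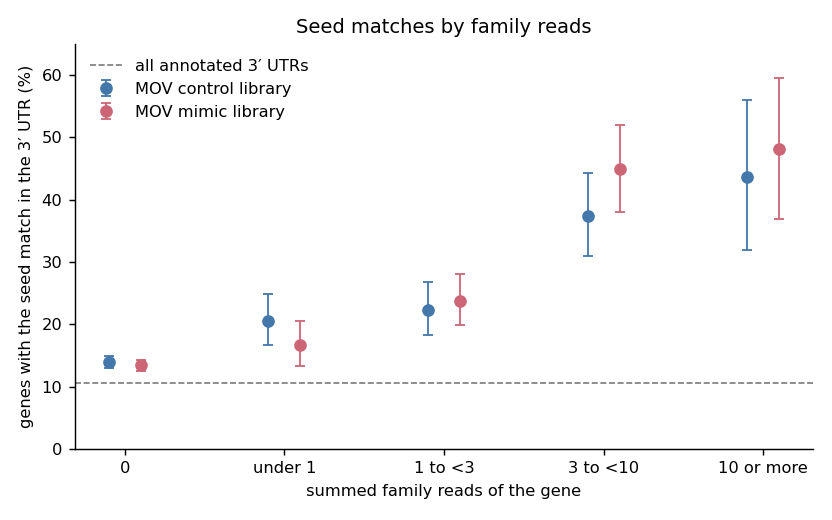
Share of genes (percent, with exact Clopper-Pearson 95% intervals) whose annotated 3′ UTR held TGGTGCT, by the gene's summed family reads in the MOV control and MOV mimic library; the dashed line is the share over all annotated 3′ UTRs, 10.6%. The share goes from 13.9% and 13.4% at 0 reads to 43.7% and 48.1% at 10 or more.

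Of the 24 collagens with a peak of any miRNA, 15 held TGGTGCT in the 3′ UTR. Among the 12 named ones, which were chosen for their family reads, 11 held it and 9 held the longer TGGTGCTA, which is in 2.28% of all annotated 3′ UTRs. Col1a2 had no TGGTGCT there and held GGTGCTA. In coding sequence the collagens were rich in the same letters: 24 collagens with a peak held 77 copies of TGGTGCT in their CDS, 0.657 per 1000 nt, against 0.140 per 1000 nt over the other genes with a peak. Of those 77, 70 (90.9%) were read in the frame in which GGT GCT spells glycine and alanine, residues of the collagen repeat. Over the other genes with a peak, 772 of 2061 copies (37.5%) were in that frame. Col1a1 held 21 such copies, Col1a2 16 and Col3a1 11, and Eln, which has no annotated 3′ UTR in these transcripts, held 11. Of 22 named genes outside the collagens with an annotated 3′ UTR, 10 held the match there. Sparc, Acta1, Pgam2, Aldoa, Myh1, Myh4, Ttn, Casq1 and Asph were among those that did not. Only 1 transcript per gene was searched. On Asph, 75.6 and 80.9 family reads lay in 1 peak, picked after its values were seen. In the control library it lay 172616 to 172742 nt before the 3′ end of the gene span. Whether the 3′ UTR searched for Asph lies near this peak was not determined. A match describes the letters of the transcript and not a bound site.

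By the deposited split between members, which is uncertain, miR-29a-3p had 59.7% (56.1 to 63.1) of the family's collagen reads in the control library and 63.3% (59.9 to 66.7) in the mimic, against 53.5% (52.2 to 54.8) and 56.3% (55.1 to 57.5) of all family reads. miR-29b-3p had 25.5% and 21.8% of collagen reads and miR-29c-3p 14.8% and 14.9%.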

How the data were processed

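The authors immunoprecipitated Ago2 from UV cross-linked plantaris, ligated miRNA to target RNA and sequenced the chimeras. Their methods also describe a step that amplified cDNA with a miR-1 primer. Whether that step applied to the libraries used here is not stated in the sources used here. In these libraries miR-133a-3p had 42768 and 52291 reads, more than miR-1a-3p with 27411 and 35876. Shares and ranks over all miRNAs are those of the libraries as deposited. Per the labels, UMI-tools 1.1.1, cutadapt 3.2, Bowtie 1.2.3, STAR 2.7.7a and HOMER 4.11 were used with the mm10 build, while the study's methods name mm9. Of the deposited peaks, 99.1% overlapped a GRCm38 gene in each library and 56.6% an mm9 gene, so mm10 was used. The deposited score per peak and miRNA is an estimated count of chimeric reads, not normalized; how fractions arose is not given in the sources used here.

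The 2 libraries held 20754 and 21872 intervals with 232408 and 259207 reads. Each peak was assigned to the gene of largest overlap (at least 1 nt) on its strand among 49993 RefSeq genes; 14221 of unknown strand were used where no gene of known strand overlapped, and 0.906% and 0.950% of peaks had no gene. Reads were rounded for exact intervals (95%). Scripts used Python 3.11.15, numpy 2.4.6, pandas 2.3.3 and scipy 1.17.1 and were tested on simulated data. Gene names of the mm9 transcripts were matched by symbol or a unique synonym, 1 transcript per gene (with a 3′ UTR, then the longest CDS).

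The members and the 9 gene lists (206 genes) were chosen with earlier results of these data known. Named were collagens with at least 3 family reads in both libraries, the 10 genes with the most family reads per library outside collagens, mitochondria and Rn18s-rs5, up to 5 genes per other list with at least 10 family reads over both libraries, the 8 largest family peaks, and the 5 miRNAs of highest collagen share. With 1 library per group no test between groups was possible; the alternatives tried are given in the closing section.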

Additional observations from a re-analysis of the deposited data

How the results depend on the processing

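No paired analysis was possible because only 1 library stood on either side, and leaving 1 out would have left no comparison. In pairs of control and mimic values, the family's share of chimeric reads was 2.34% and 2.40% over peaks of at least 1 read, 2.12% and 2.21% over peaks of at least 3 reads, 2.82% and 2.88% without the mitochondrial chromosome and Rn18s-rs5, and 2.999% and 3.02% counted by peaks. The ratio of family reads was 1.02 when divided by library totals and 1.20 for miR-29a-3p alone. The collagen share was 15.4% and 13.7% at 1 read, 20.3% and 16.8% at 3 reads, 14.7% and 13.3% without the mitochondrial chromosome and Rn18s-rs5, 4.82% and 4.69% counted by peaks, 3.69% and 3.37% without Col1a1, Col1a2 and Col3a1, 15.4% and 14.01% for miR-29a-3p alone, and 20.1% and 17.7% in peaks led by a family member. The other matrix share was 6.25% and 5.91% at 3 reads, 3.10% and 2.62% by peaks, 2.75% and 2.32% without Fn1 and Sparc, and 7.30% and 6.39% in peaks led by a family member. Target genes numbered 1111 and 1229, but 629 and 675 at 1 read, 159 and 165 at 3 reads, 469 and 517 in peaks led by a member and 316 and 333 with at least 2 peaks. The share of control intervals overlapped was 48.7% at 1 read, 70.5% at 3 reads, 33.5% at 50% reciprocal overlap and 38.4% from the mimic side; the median log2 ratio was 0.21 at 3 reads and -0.0613 divided by library totals. Chosen after seeing the data, the collagen share over that of other miRNAs was 5.61 and 5.72 without the mitochondrial chromosome and Rn18s-rs5, and 9.23 and 8.86 at 3 reads. Also chosen then were 106 alternative values for the ratios of named genes: 105 stayed within the interval and Myh4 moved to 0.480 for miR-29a-3p alone. Of these, 15 crossed 1 (8 of 36 divided by library totals, 5 of 36 for miR-29a-3p alone and 2 of 34 at 3 reads), all of genes whose interval included 1, and the number of named genes whose interval left out 1 went from 8 to 6 by library totals, losing Col4a1 and Nrep. Depth limits most family peaks, whose median is under 1 read, to a statement of presence.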

Other observations

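By the family's share of chimeric reads on a gene, the 15 highest of the 451 genes with at least 50 reads in both libraries, a list made after the values were seen, included several genes of no list. Zfp568, a zinc finger gene, had family shares of 26.9% in the control and 31.8% in the mimic library. Ky, a muscle gene whose loss causes kyphoscoliosis in mice, had 32.6% and 24.0%. Coq8a, needed for coenzyme Q synthesis, had 27.5% and 24.1%. Alongside them stood Nrep, Eln, Asph, Col4a1, Col3a1, Trim63, Sparc, Col6a3, Lpl and Casq1. On the mitochondrial chromosome, where other miRNAs had 14.0% and 13.7% of their reads, the family had 0.474% and 0.613%. The other miRNAs differed widely there. The let-7 family had 37.8% and 34.1% of its reads there, the miR-26 family 2.58% and 2.51%, and miR-199 and miR-214 3.60% and 3.82%.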
